A study of Cucumis sativus with 4 samples.

Results

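In young cucumber (Cucumis sativus) fruits, 28 of the 20000 listed genes reached their highest level in a single pool of the short-fruited line 409, replicate 2, at least 2 times above every other library. They were chosen by these same values: at least 20 RPM in 409 replicate 2, at least 2 times the highest of 409 replicate 1, 408 replicate 1 and 408 replicate 2, and a mean of the 4 libraries under 500 RPM. RPM scales the reads counted for a gene to a library total of 1000000, and it is not divided by gene length. The peak itself is therefore the choice and not a finding, and what is described is how the 3 libraries below the peak were arranged. In 25 of 28 members, or 89.3%, 409 replicate 1 was above 408 replicate 1 and 408 replicate 1 above 408 replicate 2, against 34.3% of tested genes and 81.5% of other genes at this level that were highest in 409 replicate 2. The middle pair of libraries lay within 25% of each other in 13 of 28 members, and in 0 of 28 were the 3 libraries flat, meaning the highest of them less than 25% above the lowest.

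Cucumber is eaten as an immature fruit, and its final length depends on how much the young fruit grows by cell division around flowering and by cell expansion afterwards. Near-isogenic lines are bred to share most of their genome while differing in a trait, so that expression can be compared with little background difference. Line 409 bears short fruits and line 408, its near-isogenic partner, long fruits. Plants of both lines grew in a greenhouse and received no treatment that the labels name. Fruits of 2 to 4 cm were taken from both lines at one collection, and each of the 2 biological samples per line was 1 pool of 3 to 5 fruits from different plants. A pool is a mixture of all fruit tissues, so fewer cells of a type and less RNA per cell cannot be told apart. The labels do not say how the fruits in one pool differed from those in the other.

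Neither the expression table nor the reference table links these gene IDs to names, so no member is given a function, a protein or a promoter sequence, and the tissue could not be checked against marker genes. Depth, estimated from the rounding steps of the values, came to 12256000 reads for 409 replicate 2 and 13753000 for 409 replicate 1, and to 12496000 and 13808000 reads for 408 replicates 1 and 2. One read is then worth 0.0724 to 0.0816 RPM. All 28 members passed the filter on low values that left 17391 genes for testing, for which 1 RPM in 2 libraries was enough.

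The members' median level was 77.9 RPM in 409 replicate 2 and 34.1 RPM in 409 replicate 1, against 27.0 RPM in 408 replicate 1 and 12.2 RPM in 408 replicate 2. In 409 replicate 2 they spanned 21.6 to 862.6 RPM, and in 409 replicate 1 they spanned 8.4 to 329.3 RPM. The spans were 3.8 to 202.4 RPM in 408 replicate 1 and 2.2 to 88.7 RPM in 408 replicate 2. The median moved down from library to library, and 3 of the 28 members had 408 replicate 1 above 409 replicate 1. Summed over the 28 genes, they took 0.447% of the RPM in 409 replicate 2 and 0.176% in 409 replicate 1, and 0.135% in 408 replicate 1 and 0.062% in 408 replicate 2.

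**Figure D1:**
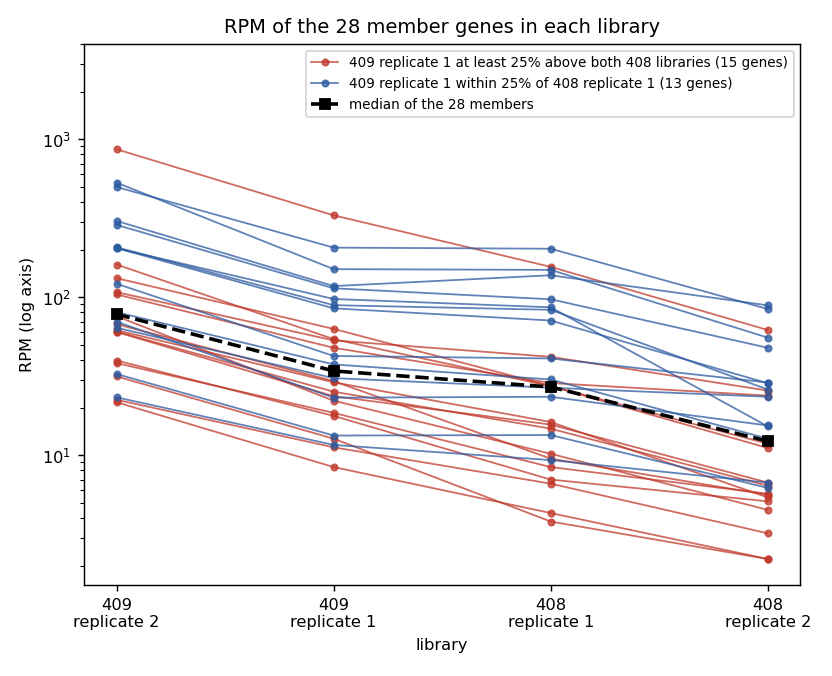
RPM of each of the 28 members (log axis) in 409 replicate 2, 409 replicate 1, 408 replicate 1 and 408 replicate 2, with the median of the members as a dashed line. Red lines are the 15 genes with 409 replicate 1 at least 25% above both 408 libraries and blue lines the 13 genes with 409 replicate 1 within 25% of 408 replicate 1; every line ends lowest in 408 replicate 2.

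The peak was modest in size for most members. The ratio of 409 replicate 2 to the highest other library had a median of 2.36 and ranged from 2.0 to 3.53. It was under 2.5 in 19 members, from 2.5 to under 3 in 7, and 3 or more in 2. A 95% counting interval of the ratio (exact binomial, from reads approximated with the estimated depths, covering counting error only) lay wholly at or above 2 in 17 members and reached below 2 in 11. Membership of those 11 genes is therefore within counting error of the threshold. The lowest 2 members had exactly the threshold ratio, at 23.2 RPM in 409 replicate 2 against 11.6 in 409 replicate 1, and at 22.4 against 11.2 RPM. Just outside, the nearest gene had 83.3 RPM in 409 replicate 2 and 41.8 RPM in 409 replicate 1, a ratio of 1.993, against 21.1 RPM in 408 replicate 1 and 4.6 RPM in 408 replicate 2. Members and near misses thus formed a continuous range.

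**Figure D2:**
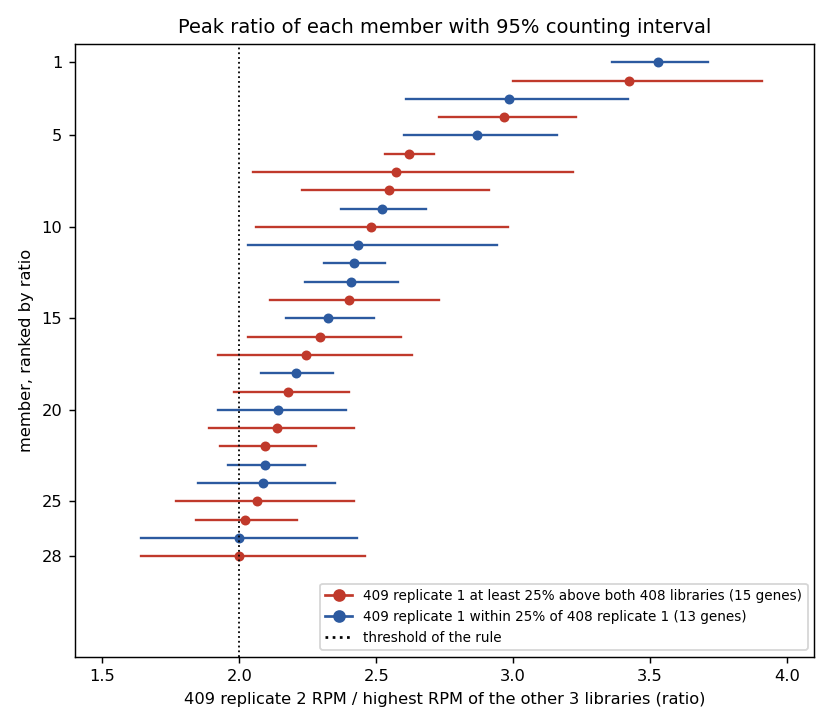
Ratio of 409 replicate 2 to the highest of the 3 other libraries for each member, ranked from highest at the top, with the 95% counting interval as a line and the threshold of 2 dotted. The ratios run from 3.53 down to 2.0, and the intervals of 11 members cross the threshold; colours are those of the 15 and 13 genes defined for the levels by library.

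The gene with the largest ratio was Csa2G352420, which had 530.3 RPM in 409 replicate 2 and 150.3 RPM in 409 replicate 1, against 148.7 RPM in 408 replicate 1 and 55.4 RPM in 408 replicate 2. Its middle pair of libraries could not be told apart, with 409 replicate 1 at 1.01 times 408 replicate 1 (95% counting interval 0.949 to 1.08), while 409 replicate 2 lay above that pair and 408 replicate 2 below it. Line 409 averaged 340.3 ± 268.7 RPM and line 408 averaged 102.0 ± 66.0 RPM (SD over 2 pools each), so the gap within line 409 was larger than the gap between the line means. The 408 libraries also differed, by 2.68 times.

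Csa3G792070, the gene with the second largest ratio at 3.42, was graded at each step. It had 75.6 RPM in 409 replicate 2 and 22.1 RPM in 409 replicate 1, against 10.2 RPM in 408 replicate 1 and 4.5 RPM in 408 replicate 2. The libraries of 409 did not overlap those of 408, and 409 replicate 1 was 2.17 times 408 replicate 1 (95% counting interval 1.76 to 2.70). The level in 409 replicate 2 was 16.8 times that in 408 replicate 2, the widest span among the 28 members.

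The 2 members with the smallest difference between 409 replicate 1 and the 408 libraries were Csa1G629040 and Csa6G104650. Csa1G629040 had 303.4 RPM in 409 replicate 2 and 117.4 RPM in 409 replicate 1, against 137.5 RPM in 408 replicate 1 and 88.7 RPM in 408 replicate 2. Its 409 replicate 1 value lay between those of the 408 libraries, 0.854 times 408 replicate 1 (95% counting interval 0.798 to 0.915), so the lines overlapped. Csa6G104650 had 69.8 RPM in 409 replicate 2 and 23.1 RPM in 409 replicate 1, against 23.4 RPM in 408 replicate 1 and 15.4 RPM in 408 replicate 2. Here 409 replicate 1 could not be told from 408 replicate 1, at a factor of 0.987 (0.841 to 1.16). The third member in which 409 replicate 1 was not above both 408 libraries was Csa6G507480, named after its values were seen. It had 32.6 RPM in 409 replicate 2 and 13.3 RPM in 409 replicate 1, against 13.4 RPM in 408 replicate 1 and 6.2 RPM in 408 replicate 2.

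The arrangement of the 3 libraries below the peak was then taken over all members. By any margin, 409 replicate 1 was above both 408 libraries in 25 of 28 members, or 89.3%, against 41.4% of the 17391 tested genes. The share was 87.1% in the 3129 other genes at this level that were highest in 409 replicate 2. It was 88.2% in the 110 of these with a ratio of 1.5 to under 2. Because 409 replicate 2 is the top library by choice, these are also the 25 members whose lines did not overlap, against 34.9% of tested genes. That count is thus near the share of genes highest in 409 replicate 2. At a margin of 25%, 15 members were in line order, with 409 replicate 1 that far above both 408 libraries. That is 53.6% of the members, against 21.6% of tested genes, 47.1% of the 3129 other genes at this level that were highest in 409 replicate 2 and 64.5% of the 110 of these closest to the threshold, at a ratio of 1.5 to under 2. None of the 28 was opposed, meaning both 408 libraries that far above 409 replicate 1. Opposed genes made up 28.4% of tested genes but 0.415% of the 3129, so their absence is near the share of genes highest in 409 replicate 2. None of the members was flat, against 23.4% of tested genes, 24.7% of the 3129 and 4.55% of the 110.

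The 13 remaining members had 409 replicate 1 and 408 replicate 1 within 25% of each other. They are called plateau genes by that margin only. This middle pair lay between a higher 409 replicate 2 and a lower 408 replicate 2, but it was not level in every gene. One example, twelfth by ratio, had 497.8 RPM in 409 replicate 2 and 205.7 RPM in 409 replicate 1, against 202.4 RPM in 408 replicate 1 and 84.1 RPM in 408 replicate 2. Another had the widest gap between the 408 libraries. Its values were 203.7 and 97.3 RPM in 409 replicates 2 and 1, against 86.2 and 15.2 RPM in 408 replicates 1 and 2. The counting interval of its middle pair, 1.04 to 1.22, was above 1, as in some other plateau genes. The plateau gene with the smallest gap between the 408 libraries had 64.0 and 30.7 RPM in 409 replicates 2 and 1. It had 26.7 and 23.4 RPM in 408 replicates 1 and 2. Its factor of 1.14 between the 408 libraries was no larger than that of its middle pair, 1.15. The plateau genes had a median factor of 1.07 between 409 replicate 1 and 408 replicate 1 (lowest 0.854), against 1.99 in the 15 genes in line order (range 1.27 to 3.34). The largest of these factors belonged to a gene with 31.5 RPM in 409 replicate 2 and 12.7 RPM in 409 replicate 1, against 3.8 RPM in 408 replicate 1 and 2.2 RPM in 408 replicate 2. The median peak ratio was 2.41 in the plateau genes and 2.29 in those in line order. The factor was a continuous range rather than 2 separate clusters, and its counting interval was above 1 in 19 members, held 1 in 8 and was below 1 in 1.

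A second shared feature was the gap within line 408. The rule limited both 408 libraries from above but did not set the gap between them. In all 28 members 408 replicate 2 was the lowest of the 4 libraries. In all 28 408 replicate 1 was above 408 replicate 2, against 49.4% of tested genes and 91.6% of the 3129 other genes highest in 409 replicate 2. The median factor was 2.11 (range 1.14 to 5.67). The gap was at least 25% in 26 members and at least 2 times in 16. The gap between the pools of line 408 was thus nearly as large as that between the pools of line 409, whose median factor was 2.41 (range 2.0 to 3.53), a range with a lower limit set by the choice. On the log2(RPM + 1) scale the median steps were 1.23 between the 409 libraries, 0.45 between 409 replicate 1 and 408 replicate 1, and 1.00 between the 408 libraries. The largest of the 3 steps was the one within line 409 in 18 members, the one between the middle libraries in 5 and the one within line 408 in 5.

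**Figure D3:**
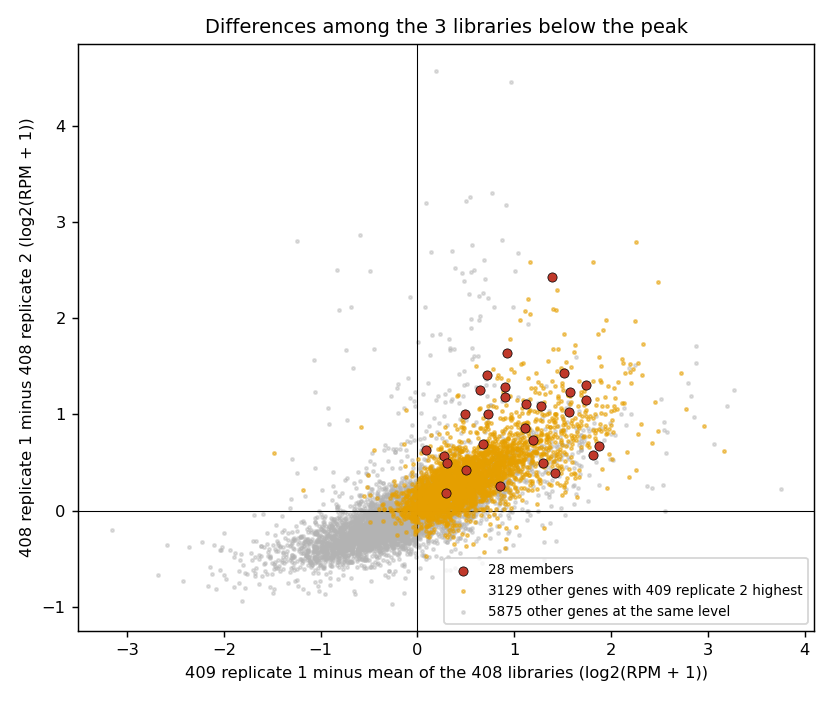
Difference of 409 replicate 1 minus the mean of the 408 libraries (horizontal) against 408 replicate 1 minus 408 replicate 2 (vertical), both as log2(RPM + 1), for the 28 members (red), for 3129 other genes with 409 replicate 2 as the highest library (orange) and for 5875 other genes at the same level (grey). All members lie above 0 on both axes, within the spread of the orange genes.

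These features were shared by other genes that were highest in 409 replicate 2. Of 9004 non-members at the same level, meaning at least 20 RPM in 409 replicate 2 and a mean under 500 RPM, 3129 had 409 replicate 2 as the highest library. The full order of 409 replicate 1, 408 replicate 1 and 408 replicate 2 was present in 89.3% of the members, against 81.5% of the 3129 genes and 45.4% of the 9004. Similarly, 408 replicate 1 was above 408 replicate 2 in 100% of the members, against 91.6% of the 3129 genes. The order is therefore near the share of genes that lean towards 409 replicate 2 at all, and is not particular to the members. Sizes differed more. The median difference between 408 replicate 1 and 408 replicate 2 was 1.00 on the log2(RPM + 1) scale in the members, against 0.29 in the 3129 genes, and that of 409 replicate 1 minus the mean of the 408 libraries was 1.01, against 0.44. No test of these differences is given, since genes are not replicates and the members were chosen on the same libraries.

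The gap between the 408 libraries was wider in classes with a larger peak. In the 110 genes just below the threshold, with a ratio of 1.5 to under 2, the median gap between the 408 libraries was 0.84 on the log2(RPM + 1) scale and 85.5% had the full order. It was 0.48 in the 431 genes with 409 replicate 2 from 25% to under 50% above the highest other library, of which 89.3% had the full order, and 0.25 in the 2588 genes below that, of which 80.0% did. The step between 409 replicate 1 and 408 replicate 1 did not follow the peak in the same way, at a median of 0.45 in the members, 0.52 in the 110 genes, 0.39 in the 431 and 0.28 in the 2588. The share of flat genes was 0% in the members, 4.55%, 9.74% and 28.1% in these classes in turn. A flat baseline under a lone peak in 409 replicate 2 was thus uncommon at larger ratios, with 5 of 110 genes in the class next to the members.

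**Figure D4:**
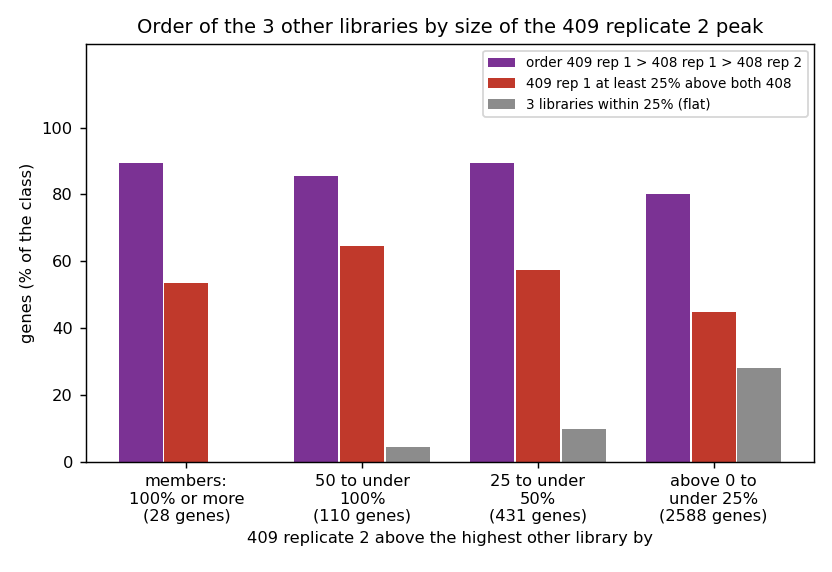
Percent of genes with the full order of the 3 other libraries (purple), with 409 replicate 1 at least 25% above both 408 libraries (red) and with the 3 libraries within 25% of each other (grey), for the 28 members and for genes with smaller excesses of 409 replicate 2 over the highest other library. The full order stays between 80.0% and 89.3%, and the flat share is 0% in the members and 28.1% in the class with the smallest ratios.

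The comparison of the lines, short-fruited 409 against long-fruited 408, asks which genes differ between these lines. With a single line of each kind, fruit length cannot be told apart from any other difference between them. In limma on log2(RPM + 1) with Benjamini-Hochberg adjustment over all 17391 genes, 9 of the 28 members were called higher in 409 at an adjusted p under 0.05, against 10.1% of tested genes called in that direction and 27.2% in either. The rule used this contrast, so the count is a description only. Over all genes 1757 of the 4738 calls were higher in 409 at the deposited scaling, and 2728 of 5427 after quantile normalization, where 13 members were called. The 9 called members became 0 without the filter on low values, 0 when any 1 library was left out and 3 with the replicate number as a block, where the 4738 genes became 0, 0 and 1356. All 9 were among the 15 genes in line order. Both that class and the fit use 409 replicate 1 and the 408 libraries, so this overlap is a description only. The members' median log2 fold change, 409 minus 408, was 1.60, against -0.06 over all tested genes. In 20 of the 28 members the difference between the lines was larger than the gap within either line, and 15 of these 20 were the genes in line order. The share of other genes for which this held was not counted. As the rule used this contrast, the count of 20 is also a description only. For the other 8 it was not larger than the spread between replicates.

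Leaving out 409 replicate 2, the library that defined the members, left 409 replicate 1 against both 408 libraries. In all 28 members 409 replicate 1 was above the mean of the 408 libraries, at a median log2 difference of 1.01, on values that the rule had limited from above. In 3 of the 28 it was below 408 replicate 1. The median was 0.44 in the 3129 other genes at this level that were highest in 409 replicate 2. In 87.1% of those genes 409 replicate 1 was above both 408 libraries, so the direction is not particular to the members. The fit without 409 replicate 2 assumes that the lone 409 library varies like the 408 pair. Limma called 0 of 17391 genes in it, 0% in the members' direction, at a smallest adjusted p of 0.181, with 3974 genes at an unadjusted p under 0.05. The members are not counted at an unadjusted p here, since the share among the 3129 genes was not counted.

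The same rule was applied with each other library as the peak. It found 10 genes for 409 replicate 1, 33 for 408 replicate 1 and 21 for 408 replicate 2. The 28 genes peaking in 409 replicate 2 and the 21 peaking in 408 replicate 2 mirrored each other in order. In the first set 25 of 28 ran down through 409 replicate 1 and 408 replicate 1 to 408 replicate 2. In the second set 19 of 21 ran down through 408 replicate 1 and 409 replicate 1 to 409 replicate 2. The first order also held in 81.5% of the 3129 other genes at this level highest in 409 replicate 2. The share of the second order among other genes highest in 408 replicate 2 was not counted. The mirror is therefore not shown to be particular to these sets. Genes peaking in 408 replicate 1 had larger ratios, with 13 of 33 at 3 or more, against 2 of 28 in the members and 0 of 21 for 408 replicate 2. Genes at least 2 times below every other library, at 20 RPM or more in the others and a mean under 500 RPM, numbered 171 for 409 replicate 2, 2 for 409 replicate 1, 0 for 408 replicate 1 and 201 for 408 replicate 2. For 409 replicate 2, the 171 genes below the rest and the 28 above it are not counts of a like kind. The rule for low genes needs 20 RPM in every other library, and the rule for peaks needs it only in the peak library.

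By the digit after Csa in the ID, read as the chromosome by the naming convention of these IDs, 5 members fell on chromosome 1, 6 on chromosome 2, 5 on chromosome 3, 4 on chromosome 4, 1 on chromosome 5, 6 on chromosome 6 and 1 on chromosome 7. The share of members was above that of listed genes on chromosome 2, at 21.4% against 12.2%, on chromosome 6, at 21.4% against 16.6%, on chromosome 1, at 17.9% against 14.6%, and on chromosome 4, at 14.3% against 12.0%. It was below it on chromosome 5, at 3.57% against 13.2%, on chromosome 7, at 3.57% against 9.92%, and on chromosome 3, at 17.9% against 20.9%. With 28 genes these shares rest on few members each. No pair of members was next to each other in the order of the IDs. The closest pair was Csa6G507480 and a gene 9 listed genes away, which was the member with the highest RPM, at 862.6 RPM in 409 replicate 2 and 329.3 RPM in 409 replicate 1, against 155.4 RPM in 408 replicate 1 and 61.9 RPM in 408 replicate 2. The members were thus spread over all 7 chromosomes and did not form one block.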

How the data were processed

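RNA was sequenced from 2 pooled fruit samples of line 409 and 2 of line 408. Per the labels' protocols, poly(A)-selected RNA went into strand-keeping libraries. The submitters' processing notes name TopHat, and its version, the genome build, the counter and whether strand was used in counting are not stated, so overlapping genes and near-identical copies may share reads. The deposited values are RPM to 1 decimal, and each column sums to 1000000 within rounding; 0 columns were left unused. Of the 20000 IDs, 0 were found among 23999 genes of the Cucumber_9930_V3 reference table.

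Depth was estimated from how often each rounded value up to 30 RPM occurred, and tested on simulated libraries. The rounding step exceeds the worth of 1 read, which leaves whole reads out of reach and a count test with them; counting intervals (95%, exact binomial) use approximated reads. Without molecular identifiers they cover counting error only.

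Genes reaching 1 RPM in 2 libraries were tested on log2(RPM + 1), which understates changes of low genes, with limma 3.58.1 in R 4.3.3 (mean-variance trend, no covariates, Benjamini-Hochberg threshold 0.05), tested on simulated data. Differences are 409 minus 408. Nothing says that same-numbered samples belong together, and p-values measure only the spread between pools. Alternatives were pseudocounts of 0.1 and 0.5, other filters, 2 rescalings, no trend, a replicate block, each library left out, other margins and other limits of the rule. Members and tests were chosen with earlier results of these data known. Genes given by ID are the 2 members with the largest ratio, the 2 with the lowest 409 replicate 1 minus the mean of 408, and 1 more named as such. Other steps used Python 3.11.15 with scipy 1.17.1, pandas 2.3.3, matplotlib 3.10.9 and numpy 2.4.6.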

Additional observations from a re-analysis of the deposited data

How the results depend on the processing

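The full order and its parts depended little on the scaling. After median-of-ratios and quantile scaling, 27 and 25 of the 28 members had 409 replicate 1 above both 408 libraries, 17 and 17 were in line order, 0 and 0 were flat, and all 28 kept 408 replicate 1 above 408 replicate 2. Quantile scaling moved the median log2 difference of all tested genes, 409 minus 408, to 0.07, against -0.06 as deposited. At a margin of 1.5 times 2 members were flat. Without 408 replicate 1 or 408 replicate 2, 28 and 15 were in line order. Of the 17 members whose counting interval lay at or above 2, 14 had 409 replicate 1 above both 408 libraries and 8 were in line order, out of fewer genes. The rule found 139 genes at 1.5 times, 2 at 3 times, 37 after either rescaling, and 28 to 571 when 1 of the other libraries was ignored, most without 409 replicate 1. The 4738 genes called between the lines became 0 without a filter (8340 at an unadjusted p under 0.05) and 0 to 0 without any 1 library, and 1356 with the replicate block. Called members became 0 without a filter, 0 to 0 without any 1 library, 5 without the trend and 3 with the replicate block, against 9; the cause was not tested. Same-numbered libraries deviated oppositely, with a correlation of -0.48 across genes, so a block with the numbers crossed was added after the data were seen. It called 8605 of 17391 genes, 3570 of them higher in 409, and 28 members. That pairing was chosen from the same deviations that the block removes, so more calls were built into it and they support nothing. The other 3 added settings were the libraries ignored in the rule, the 408 libraries left out of the order and the narrower member set. The log2 difference, 409 minus 408, of Csa1G629040 was 0.09 without 409 replicate 2, against 0.77 with all libraries; that of Csa2G352420 was 0.72, against 1.63, and that of Csa6G104650 was 0.27, against 1.05. Depth limits levels below about 0.245 RPM, far under the members' lowest value.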

Other observations

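The limit of 500 RPM on the mean kept out 4 genes that met the rest of the rule, and all 4 were graded in the order of the members. The lowest of them had 1086.6 RPM in 409 replicate 2 and 521.7 RPM in 409 replicate 1, against 342.3 RPM in 408 replicate 1 and 172.4 RPM in 408 replicate 2. The next had 2769.6 and 1015.6 RPM in 409 replicates 2 and 1, against 694.6 and 320.9 RPM in 408 replicates 1 and 2. The third had 5654.9 and 2237.5 RPM in the 409 libraries, against 1848.8 and 696.9 RPM in the 408 libraries in the same order. The highest had 13280.6 RPM in 409 replicate 2 and 6241.5 RPM in 409 replicate 1, against 4292.2 RPM in 408 replicate 1 and 1193.9 RPM in 408 replicate 2. Their ratios of 409 replicate 2 to the highest other library, 2.083 to 2.727, lay within the range of the members.

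At the lower limit, the member nearest to 20 RPM had 21.6 RPM in 409 replicate 2 and 8.4 RPM in 409 replicate 1, against 4.3 RPM in 408 replicate 1 and 2.2 RPM in 408 replicate 2. The nearest gene below the limit had 17.9 RPM in 409 replicate 2 and 6.8 RPM in 409 replicate 1, against 6.4 RPM in 408 replicate 1 and 3.3 RPM in 408 replicate 2. It was in the same order, and lowering the limit to 10 RPM added 10 genes to the 28, for a total of 38.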
